A study of Homo sapiens with 4 samples.

Results

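The subject is a group of 10 noncoding genes that carry small nucleolar RNAs (snoRNAs) in their introns: SNHG1, SNHG3, SNHG5, SNHG6, SNHG7, SNHG8, SNHG12, GAS5, DANCR and ZFAS1. They were chosen by name, as the gene probes whose gene name in the scanner files equals one of these symbols, and all 10 were present, with 25 of the 58201 gene probes. The array design gave 43317 gene names in all. RNA came from 2 human cancer lines, HCT116 (colorectal) and A549 (lung), each transfected with the microRNA miR-891b or with NC1, a negative control RNA, with the lipid reagent Dharmafect1, and was read on 1-colour Agilent arrays. Each line thus gave 1 array with NC1 and 1 with miR-891b, which makes 4 groups of 1 array, and nothing in the labels names separate cultures. The series concerns PSAT1, an enzyme of serine synthesis, and the release of extracellular vesicles.

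A snoRNA host gene is transcribed like a messenger RNA gene, and its snoRNAs are cut out of the introns after splicing. Most snoRNAs guide the chemical modification of ribosomal RNA in the nucleolus: those of the C/D box class direct ribose methylation and those of the H/ACA class direct the conversion of uridine to pseudouridine. The spliced exons of several hosts are short-lived, because ribosomes start on them and nonsense-mediated decay then removes them. Some hosts also begin with a terminal oligopyrimidine (TOP) tract, a C followed by further pyrimidines that messenger RNAs of ribosomal proteins share and that ties their translation and stability to cell growth. GAS5 takes its name from its accumulation in growth-arrested cells.

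A microRNA lowers transcripts mainly through its seed, bases 2 to 8, which pairs with complementary sites. The mature miR-891b sequence from RefSeq (chrX:146001100-146001121, GRCh38.p14, minus strand) is printed with the seed in capitals, and the SNHG5 probe after it is shown because it was the only one of the 25 member probes that held the 8-base complement AAGTTGCA, in capitals. The SNHG5 coordinates are on hg19, the build named in the file headers, and the mapped span of the probe, longer than its 60 bases as for a probe over a splice junction, is 292 bases of the genome (chr6:86386909-86387200, minus strand).
miR-891b: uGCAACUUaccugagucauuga
SNHG5 junction probe: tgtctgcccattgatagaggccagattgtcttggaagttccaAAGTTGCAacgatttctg

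Other SNHG5 probes are shown because they read the same transcript at places without that site, in order from its start (chr6:86387688-86387747, chr6:86387513-86387572 and chr6:86386850-86386909, all on the minus strand).
SNHG5 first probe: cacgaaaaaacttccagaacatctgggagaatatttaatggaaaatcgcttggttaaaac
SNHG5 second probe: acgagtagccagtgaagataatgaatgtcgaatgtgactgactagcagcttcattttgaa
SNHG5 brightest probe: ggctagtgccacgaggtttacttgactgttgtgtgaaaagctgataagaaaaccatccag

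Levels are log2 signals relative to the 75th percentile of the array, and changes are miR-891b minus NC1 on that scale. Each gene is given by its brightest probe, and probe levels are compared between arrays only, not between genes. Because each group had 1 array, no difference within a line has a replicate check; size alone, a difference of 2-fold or more, made a call, without a p-value. The spread that could be measured was that between spots of the same probe within an array pair, with a median SD of 0.061 in HCT116 (276 probes at 5 or more spots) and 0.071 in A549 (287 probes). It covers neither the cultures nor the labelling. Each member probe was printed at 1 spot. All 10 brightest probes were well above background on all 4 arrays, as were 23 of the 25 probes. The exceptions were an SNHG8 probe with no genome position, which stood above background on none of them, and the third SNHG1 probe, which was so on the A549 arrays only. The share of all gene probes well above background was 44.7% to 46.0% on the HCT116 arrays and 50.1% to 50.3% on the A549 arrays, and no gene spot was saturated. No member probe lay in an area of stray signal, taken as an area within 10 rows and columns where 1 array alone lit up at least 10% of the spots left dim by the rest; the highest share near a member was 7.69%.

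The line labels were checked on 5 marker genes each. On the NC1 arrays the 4 A549 markers measured in both lines were higher in A549 by 3.80 to 12.2, and the 4 HCT116 markers measured in both were lower there by differences of -6.75 to -3.13. The fifth HCT116 marker, GPA33, was above background nowhere. AKR1B10, an A549 marker, went against a plain separation: in HCT116 it was 4.47 higher with miR-891b than with NC1, and its second probe 4.05 higher. The other line markers past 2-fold with miR-891b were KRT81 (-1.64), ALDH3A1 (-1.17, with 18.7% stray signal nearby) and CLDN3 (1.03), all in A549; in the same line CLDN7 had -0.96, CDX2 -0.36 and EPCAM 0.74. Of 8 fibroblast markers, COL1A2, COL3A1, DCN and FAP were above background nowhere, while COL1A1 and PDGFRB were so on all 4 arrays and LUM and THY1 on the A549 arrays only. With miR-891b in A549, LUM was higher by 2.14, THY1 differed by -1.04, COL1A1 by -0.59 and PDGFRB by -0.04. The part of these markers in the values of the host genes was not tested.

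With miR-891b, 1 of the 10 genes passed 2-fold in A549 and none did in HCT116. SNHG5 was 2.55-fold lower in A549. DANCR, SNHG3, ZFAS1 and SNHG1 were lower there by 1.87-fold, 1.70-fold, 1.58-fold and 1.57-fold, which is under the limit for a call. At a limit of 1.5-fold the count was thus 5 of 10 lower and none higher in A549. This stands beside 15.3% and 11.1% of all genes and 23.8% lower among genes as bright as these. Quantile normalization left 3 lower, beside 13.7% of genes as bright, and brought SNHG7 past the limit on the higher side (0.72). In HCT116 no member passed 1.5-fold, where 5.65% of genes were lower and 3.91% higher by that much. In A549 SNHG7 and SNHG12 had a higher signal, and in HCT116 SNHG1, SNHG3 and SNHG12 did. Among all genes measured in A549, 5.57% were at least 2-fold lower and 4.01% at least 2-fold higher, so that 1 of 10 lies near the background; in HCT116 the shares were 0.843% and 1.16%. By sign alone, 8 of the 10 genes were lower in A549 and 7 in HCT116, beside 55.6% and 55.5% of all genes and 68.6% and 61.3% of genes as bright as these. With quantile normalization the counts were 6 in A549 and 4 in HCT116, beside 48.07% and 50.04% of genes as bright under that scaling. The median change of the 10 genes was -0.58 in A549 and -0.06 in HCT116, against -0.06 over 21337 and -0.04 over 19105 genes measured. Part of this shift was shared by other bright genes: the 1425 genes whose mean level lay within the range of the members (4.96 to 7.38) had a median of -0.23 in A549 and -0.06 in HCT116. Quantile normalization, which evens out such shifts, brought the median of the 10 genes to -0.29 in A549 and 0.014 in HCT116.

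**Figure D1:**
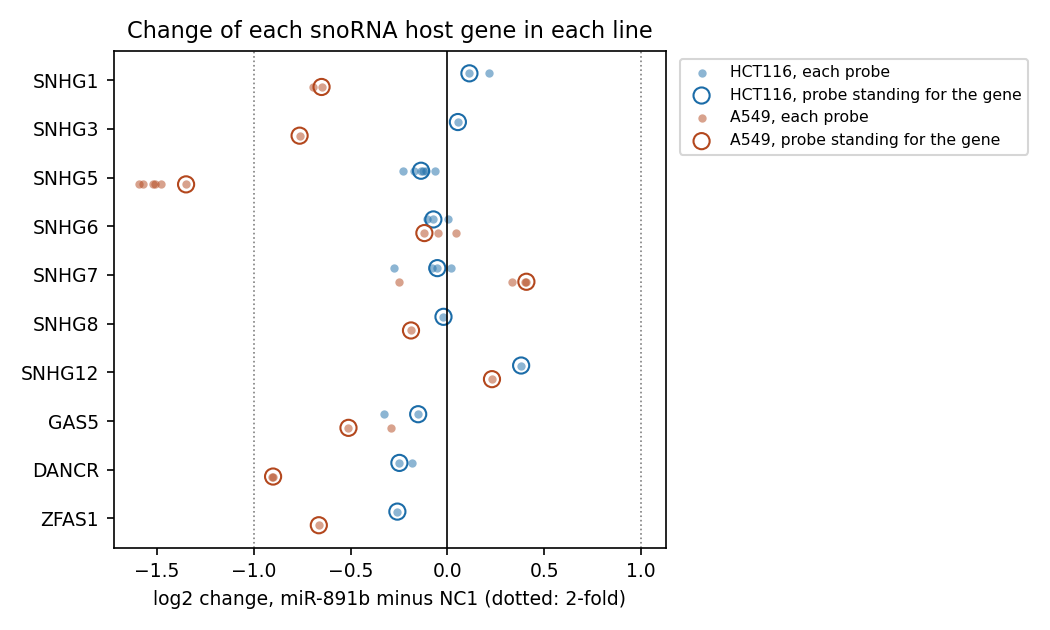
Log2 change, miR-891b minus NC1, on the x axis for each of the 10 genes on the y axis; dots are the member probes measured on every array, open circles the probe that stands for the gene, and dotted lines mark 2-fold. The 6 SNHG5 probes in A549 lie between -1.59 and -1.35, while no HCT116 probe reaches either dotted line.

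SNHG5, which carries C/D box snoRNAs of the SNORD50 family, had a level of 6.55 in HCT116 NC1, 6.42 in HCT116 miR-891b, 8.29 in A549 NC1 and 6.94 in A549 miR-891b. The A549 control stood above the other 3 arrays, and the miR-891b array of A549 lay nearer to the HCT116 arrays than to its own control. The change was -1.35 in A549 and -0.14 in HCT116, a difference between the lines of -1.21 that could not be tested with 1 array per group. In A549 2.57% of genes had a lower change than SNHG5, and 6.98% a lower one than DANCR.

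SNHG5 was also the gene with the most probes, 6, with start values of 96, 193, 194, 263, 322 and 330 in the files. These values were read as positions in the transcript, which the files do not state. The order of the SNHG5 probes on the genome is the same. That of the 2 GAS5 probes is not, but 1 of them has a mapped span of only 18 bases. Among the SNHG7 probes the one with a start value of 1814 also lies out of order. The pairs at 193 and 194 and at 322 and 330 shared 59 and 52 of their 60 bases, so the 6 probes read 4 separate places, from chr6:86386842 to chr6:86387747. In A549 their mean change was -1.50 ± 0.087 (SD over 6 probes of the same RNA), and in HCT116 it was -0.14 ± 0.055. All 6 were lower with miR-891b in both lines. The spread between probes therefore lay far below the A549 change, although probes of 1 RNA sample are not replicates of the transfection.

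**Figure D2:**
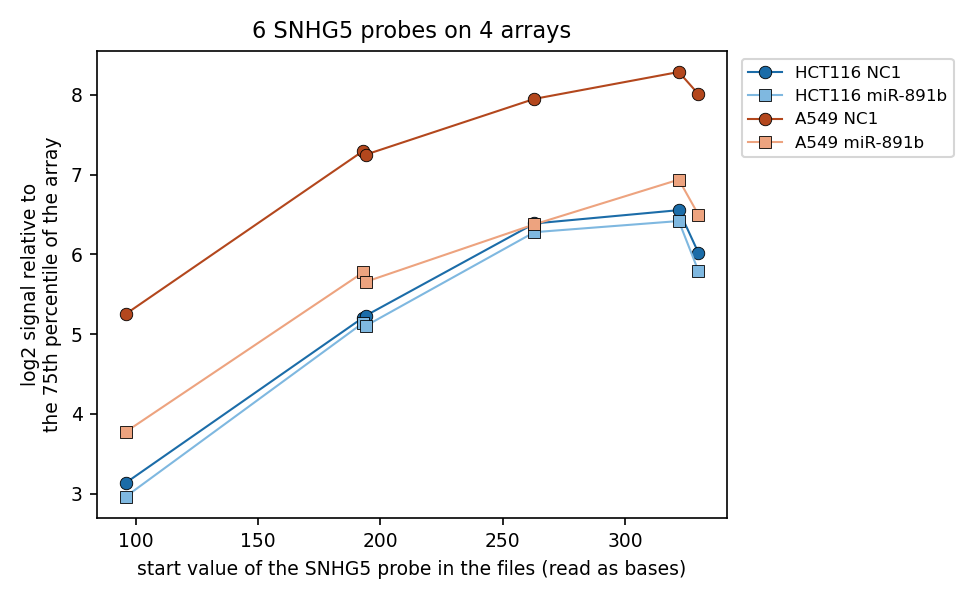
Log2 signal relative to the 75th percentile of the array (y axis) for the 6 SNHG5 probes by the start value of each probe in the files (x axis, read as bases), with 1 line per array. A549 NC1 lies above the other arrays at every probe; brightness along the transcript belongs to each probe and is not compared.

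The SNHG5 probe with the seed complement changed by -1.57 in A549 and -0.11 in HCT116. The 5 SNHG5 probes without it changed by -1.59 to -1.35 in A549, a range that holds the value of the probe with the site. All these probes read the same transcript, so the comparison between them cannot test the site. AAGTTGCA occurred on the sense strand of 68 gene probes (0.117%), and AAGTTGC, the complement of the seed alone, in 229 (0.393%), which include those 68. Of the 29 probes with the 8-base form that were well above background on all arrays, 1 had a lower A549 change than SNHG5, and the median was -0.62 against -0.08 for probes without it. In HCT116 the medians were -0.02 and -0.03. For the 7-base form the A549 medians were -0.51 over 95 probes and -0.08 over those without. A match describes the letters only, and whether miR-891b binds SNHG5 was not tested.

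Among the other C/D box hosts, SNHG1 had levels of 6.84 and 6.95 in HCT116 (NC1 and miR-891b) and 5.03 and 4.38 in A549. Its A549 change was -0.65, its HCT116 change 0.11, and a second probe (chr11:62622606-62622665, minus strand) gave -0.70 and 0.21. The third SNHG1 probe, assigned by the design to a cDNA clone, changed by 0.06 in A549.

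GAS5 had levels of 8.37 and 8.22 in HCT116 and 6.72 and 6.21 in A549. The changes were -0.15 and -0.51, and its second probe gave -0.33 and -0.29, so the larger change was in A549 by one probe and in HCT116 by the other. With quantile normalization the A549 change of the brightest probe was -0.21.

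ZFAS1, the host of the SNORD12 snoRNAs, was read by 1 probe (chr20:47905716-47905775, plus strand). Its levels were 7.47 and 7.22 in HCT116 and 6.66 and 6.0 in A549. It was lower with miR-891b in both lines, by changes of -0.26 and -0.66, and quantile normalization brought the A549 value to -0.37.

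SNHG6, the host of SNORD87, had levels of 7.51 and 7.44 in HCT116 and 6.43 and 6.31 in A549. Its 3 probes changed by between -0.12 and 0.04 in A549 and between -0.10 and 0.01 in HCT116. The values lay close to the spread between spots, and the A549 sign turned under quantile normalization (0.17).

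Of the hosts of H/ACA snoRNAs, DANCR, named for its part in holding back differentiation, had levels of 5.84 and 5.60 in HCT116 and 4.80 and 3.90 in A549. The changes were -0.25 and -0.90, and the second probe gave -0.18 and -0.91. This was the lowest A549 change after that of SNHG5.

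SNHG3, the host of SNORA73A and SNORA73B, had levels of 5.89 and 5.94 in HCT116 and 4.39 and 3.63 in A549. Its changes were 0.05 and -0.76, by 1 probe (chr1:28836041-28836100, plus strand).

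SNHG8, the host of SNORA24, had levels of 7.19 and 7.17 in HCT116 and 5.83 and 5.64 in A549. Its changes of -0.02 and -0.19 were small, and the A549 value was 0.06 with quantile normalization.

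SNHG7 had levels of 6.90 and 6.84 in HCT116 and 5.74 and 6.15 in A549. It was the gene with the highest A549 change, 0.41, against -0.05 in HCT116, and quantile normalization raised the A549 value to 0.72. Its probes did not move alike, and the brightest one (chr9:139619188-139619247) is printed beside the one that differed (chr9:139619969-139620028, both on the minus strand).
SNHG7 brightest probe: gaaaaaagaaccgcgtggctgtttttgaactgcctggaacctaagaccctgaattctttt
SNHG7 transcript variant 1 probe: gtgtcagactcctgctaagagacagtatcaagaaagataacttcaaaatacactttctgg
The second of these is assigned by the design to transcript variant 1, and it changed by -0.25 in A549 and -0.08 in HCT116. Its signal was the lowest of the SNHG7 probes, with levels of 0.41 and 0.16 in A549. The remaining SNHG7 probes changed by 0.33 and 0.40 in A549.

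SNHG12 carries snoRNAs of both classes. Its levels were 5.92 and 6.30 in HCT116 and 3.80 and 4.03 in A549. It was the only member with a higher signal after miR-891b in both lines, with changes of 0.38 and 0.23 by 1 probe whose mapped span is 912 bases (chr1:28905179-28906090, minus strand).

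With the lines standing in for replicates of the transfection, a limma model was fitted with terms for line and transfection and 1 residual degree of freedom. None of the 10 genes had an adjusted p under 0.05 for the transfection, with adjusted p from 0.793 to 0.942, and none had an unadjusted p under 0.05. The background was 0.0% of 22717 genes by adjusted p and 5.35% by unadjusted p. Mean change over the lines was -0.74 ± 0.38 (SE) for SNHG5, -0.57 ± 0.28 for DANCR and -0.46 ± 0.25 for ZFAS1, each lower in both lines.

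The members differed more between the lines, each of which had its own slide, than between the transfections. On the NC1 arrays 9 of the 10 genes were lower in A549 than in HCT116, 8 of them by at least 2-fold, against a background of 55.0% of genes lower and 16.2% at least 2-fold lower. SNHG12 was 4.34-fold lower, SNHG1 3.49-fold, GAS5 3.14-fold and SNHG3 2.81-fold. SNHG5 went the other way, 3.32-fold higher in A549, where 11.1% of genes were at least 2-fold higher. The median difference was -1.26 over the 10 genes, -0.10 over all genes measured and -0.23 over genes as bright as the members.

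**Figure D3:**
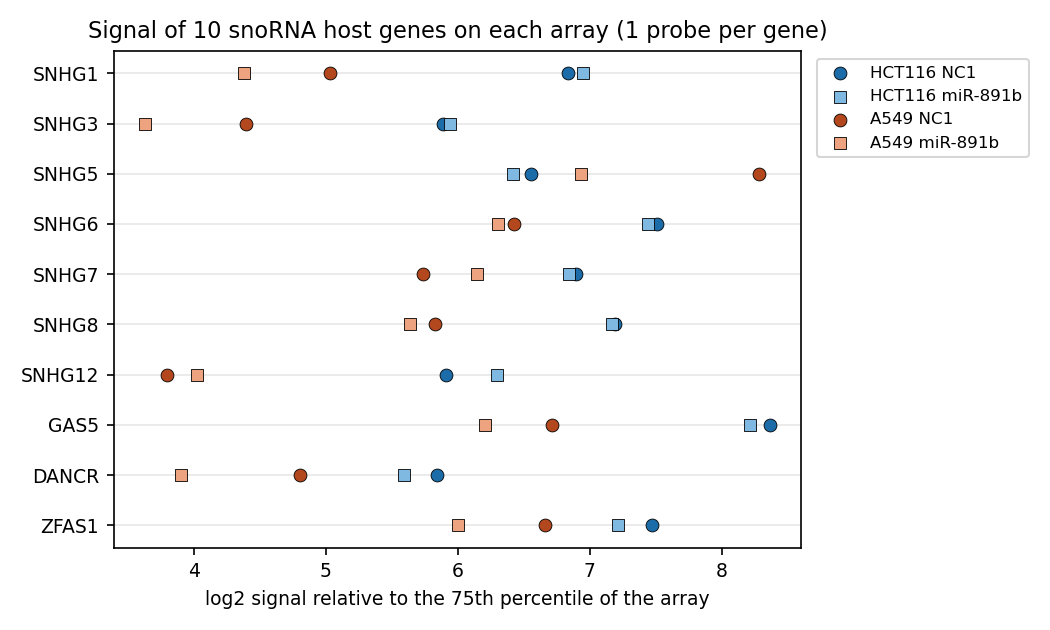
Log2 signal relative to the 75th percentile of the array (x axis) for the brightest probe of each gene (y axis), with 1 point per array. The A549 arrays lie to the left of both HCT116 arrays for every gene except SNHG5, whose A549 NC1 point at 8.29 lies to the right of its other 3 points.

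On the miR-891b arrays the same 9 genes were lower in A549, against 58.5% of all genes and 68.8% of genes as bright. Of them 8 were lower by at least 2-fold (all but SNHG7), against 20.7% of all genes and 25.7% of genes as bright. SNHG5 was 1.43-fold higher (a difference of 0.52). For the line term of the limma model, the NC1 and miR-891b arrays of a line stood in for its replicates. Its p-values therefore do not measure the spread between cultures. In that model 8 of the 10 genes had an adjusted p under 0.05 for the line, all of them lower in A549, against 31.9% of genes. All 10 had an unadjusted p under 0.05, against 46.2%. SNHG12 had the lowest, with a difference of -2.19 ± 0.23 (SE) and an adjusted p of 0.0060. SNHG7 (-0.93 ± 0.26, adjusted p of 0.060) and SNHG5 (1.13 ± 0.38, adjusted p of 0.089) did not pass. Over 8 settings of the processing no gene changed the direction of its line difference, while the size changed for SNHG1. Its difference in the model was -2.18 ± 0.30 (SE, adjusted p of 0.011) by its brightest probe and -0.67 (adjusted p of 0.12) by the mean over its probes. The third SNHG1 probe was 2.40 higher in A549 on the NC1 arrays, but it was not well above background in HCT116 (a level of -5.19 with NC1). The SNHG1 probes measured on all arrays differed by -1.80 and -1.87 on the NC1 arrays. By adjusted p, ZFAS1 passed in 4 settings, SNHG1 and SNHG6 in 7, and SNHG5 and SNHG7 in 1 each. Both arrays of a line shared a slide, so line and slide cannot be told apart. RNA per cell and the composition of the total RNA also cannot be told apart on arrays scaled in this way.

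The snoRNAs encoded in these genes had their own probes. Of 34 snoRNAs listed, 25 were found under their names, and all 25 were well above background on all arrays; SNORD50A and SNORD50B of SNHG5 and SNORA73A and SNORA73B of SNHG3 were not found under those names. The labelling kit primes from poly(A) tails, which mature snoRNAs lack, and which RNA these probes read was not tested.

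In A549 all 8 snoRNAs of SNHG1 were lower with miR-891b, by changes of -0.70 (SNORD27) to -0.27 (SNORD31), with a median of -0.41 beside -0.65 for the host. In HCT116 7 of the 8 were higher, with a median of 0.16 beside 0.11 for the host. Of the 7 GAS5 snoRNAs, 6 were lower in A549, with a median of -0.21 beside -0.51 for the host; SNORD77 had the lowest value, -0.65. For ZFAS1, DANCR, SNHG6 and SNHG8 the host had a lower value in A549 than each of its snoRNAs. The 3 SNORD12 snoRNAs of ZFAS1 lay between -0.22 and 0.16 beside -0.66, and SNORA26 of DANCR had -0.11 beside -0.90. No snoRNA passed 2-fold except SNORA44 of SNHG12, with 1.60 in A549, and its spot lay in an area of stray signal (25.9% of nearby dim spots lit on an A549 array). In HCT116 20 of the 25 snoRNAs were higher, with a median of 0.18, where 55.5% of all genes measured were lower. Without the filter on dim probes the HCT116 median over all genes was 0.20, against -0.04 over genes measured. In A549 17 of the 25 snoRNAs were lower, beside 55.6% of all genes. SNORD26, SNORD75 and SNORA26 lay in areas of stray signal in HCT116 (17.3%, 14.2% and 10.5%). On the HCT116 miR-891b array 10.7% of all gene probes lay in such areas. The other snoRNAs of SNHG12 had changes of 0.02 to 0.18 in A549 and 0.07 to 0.32 in HCT116. SNORA24 of SNHG8 had 0.40 in A549 beside -0.19 for the host, and SNORD87 of SNHG6 had 0.22 beside -0.12.

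**Figure D4:**
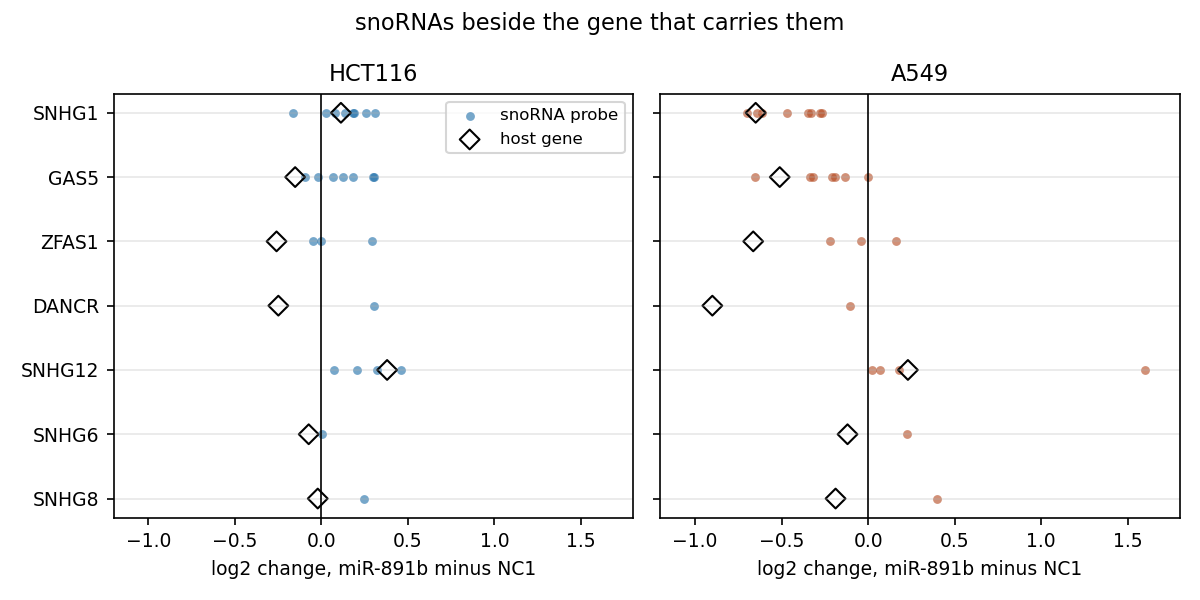
Log2 change, miR-891b minus NC1 (x axis), for snoRNA probes (dots) and for the gene that carries them (diamonds) in HCT116 and in A549. In A549 the SNHG1 dots reach from -0.70 to -0.27, and the ZFAS1, DANCR, SNHG6 and SNHG8 diamonds lie to the left of their dots.

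Between the lines, 24 of the 25 snoRNAs were lower on A549 NC1 than on HCT116 NC1, 14 of them by at least 2-fold, against the same 16.2% of genes. The median difference was -1.08. SNORD25 of SNHG1 had the most negative, -3.12, while the other SNHG1 snoRNAs lay between -0.999 and -0.14 and the host at -1.80.

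Start sites are shown for 3 hosts because they hold CTTT with its C within 2 bases of the first annotated base, which is the beginning of a TOP tract (20 bases before and 30 from the start, capitals on CTTT, RefSeq on GRCh38.p14: chr6:85678704-85678753 minus, chr20:49278622-49278671 plus, chr1:28581844-28581893 minus).
SNHG5 start: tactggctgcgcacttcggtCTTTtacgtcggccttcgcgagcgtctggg
ZFAS1 start: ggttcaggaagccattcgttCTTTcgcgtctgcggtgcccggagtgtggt
SNHG12 start: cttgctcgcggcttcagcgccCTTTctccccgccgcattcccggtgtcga
The motif was searched on the sense strand and as AAAG on the other, and these 2 motifs share no position on a strand. Of 9 members with a start in the RefSeq table, 3 (33.3%) had CTTT and none had AAAG, against 3.03% of 35116 starts with CTTT. Of 22 TOP messenger RNAs of the translation apparatus, 12 (54.5%) had it. Tracts of other pyrimidines, such as the ctct at the SNHG7 start, were not counted. Hosts without CTTT are therefore not shown to lack a TOP tract. The 3 hosts with CTTT did not move alike in A549, with changes of -1.35, -0.66 and 0.23.

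Related genes were described by lists, which share some members with each other. Their counts stand beside 55.6% of all genes lower in A549, with 5.57% at least 2-fold lower, and 55.5% lower in HCT116. Among genes as bright as the 10 hosts, 68.6% were lower in A549 and 61.3% in HCT116. Quantile normalization brought the A549 median of those bright genes from -0.23 to 0.02, and the lists were not tested under it. Many TOP messenger RNAs lay above that range of levels (4.96 to 7.38), so this brightness match does not cover them. Of 22 TOP messenger RNAs of the translation apparatus, 20 were lower with miR-891b in A549, with a median of -0.65, and 21 in HCT116, with a median of -0.23. The ribosomal protein genes RPS3 (-1.33) and RPS6 (-1.18) were at least 2-fold lower in A549, EIF4B, a translation initiation factor, had -0.98, RPLP2 had 0.17 and NAP1L1 0.07. Of 8 core proteins of snoRNA particles, all were lower in A549 and none by 2-fold, with a median of -0.56, FBL (the ribose methylase fibrillarin) at -0.84, DKC1 (the pseudouridine synthase) at -0.89, NHP2 at -0.70, NOP10 at -0.18 and GAR1 at -0.06. Their HCT116 median was 0.10. The 10 assembly factors had medians of -0.18 and 0.06 in A549 and HCT116, with RUVBL1 at -0.87, RUVBL2 at -0.78, NOLC1 at -0.07 and ZNHIT6 at 0.58 in A549.

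Of 15 other noncoding hosts found, all were measured in A549, 11 were lower and 1 passed 2-fold, SNHG19 at -1.43; the median was -0.18, with SNHG17 at -0.84, SNHG11 at 0.27 and SNHG20 at 0.60. In HCT116 6 of 12 were lower. Of 22 protein-coding hosts, 19 were lower in A549 and none passed 2-fold, with a median of -0.38; RABGGTB had -0.96, RACK1, a component of the small ribosomal subunit, -0.90, HSPA9 0.07 and TNPO2 0.40. All 22 were also lower on A549 NC1 than on HCT116 NC1, 8 by at least 2-fold, against 55.0% and 16.2% of all genes. The 16 factors of nonsense-mediated decay had medians of -0.23 in A549 and 0.08 in HCT116, with none past 2-fold, CASC3 at -0.79, RBM8A at -0.74, SMG8 at 0.11 and UPF3A at 0.13 in A549.

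The list of proliferation genes was chosen with earlier results of these data known, so its counts are a description only. Each of 10 was at least 2-fold lower in A549, with a median of -1.78, from MCM2, a helicase subunit of DNA replication, at -2.40 to PCNA at -1.40, while in HCT116 the median was 0.07 and none passed 2-fold. In A549 TOP2A had -1.90, MCM5 -1.87, CCNA2 -1.87, CCNB1 -1.76 and BUB1 -1.62. The spot of CDK1 (-1.79) lay in an area of stray signal on an A549 array (29.4%). Their part in the values of the host genes was not tested.

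**Figure D5:**
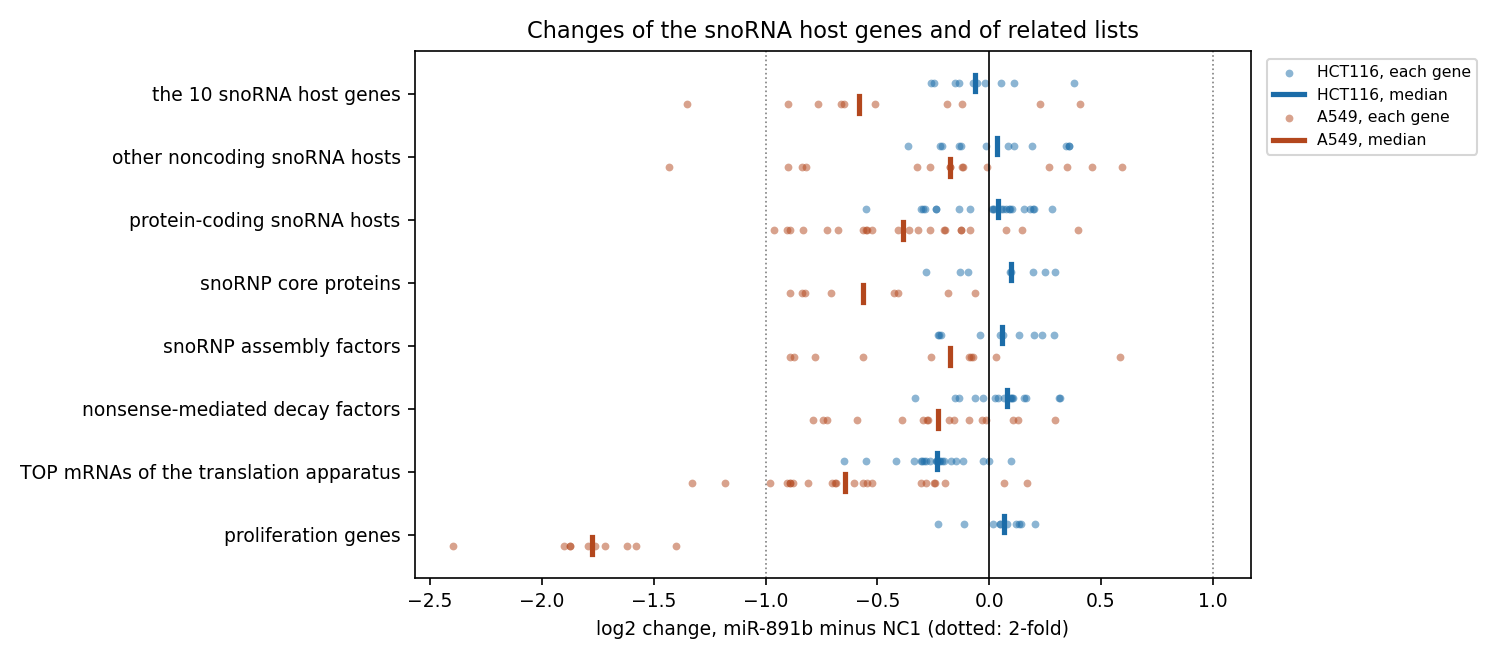
Log2 change, miR-891b minus NC1 (x axis), for each measured gene (dots) of the 10 host genes and of 7 related lists, with bars at the medians for HCT116 and A549. In A549 the medians run from -1.78 (proliferation genes) to -0.18, and in HCT116 from -0.23 to 0.10.

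By the distance between profiles over the 4 arrays, each centred on its own mean, the genes nearest to the mean profile of the 10 hosts were SOX9 (distance 0.039), CAB39L (0.054), USP38 (0.067), TRIM7 (0.069) and TFDP1 (0.070), out of 18063 genes measured on every array. The hosts themselves lay at 0.25 (SNHG8) to 2.49 (SNHG5) from that mean. With 4 arrays such a ranking is a description only.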

How the data were processed

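Per the labels, 100 ng of total RNA was labelled with Cy3 using a low-input kit. Per the file headers and the submitters' processing notes, Feature Extraction 11.5.1.1 read the scans and removed spatial trends across each array; the deposited scanner files hold intensity values without scaling between arrays. The authors' processed table is on a log2 scale, with its steps not given in the sources used here; it matched the scaled values described next to a median absolute difference of 0.0069 or less, with column medians of -3.80, -3.60, -3.71 and -3.68.

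Here spots with outlier marks were left out, log2 processed signals were averaged per probe and the 75th percentile over gene probes was subtracted. A gene was its probe with the highest mean, and was measured where well above background on both arrays compared. The model used limma 3.58.1 in R 4.3.3 with Benjamini-Hochberg adjustment, on genes well above background on at least 2 arrays, and was tested on simulated data; other values used Python 3.11.15. All 10 members are named. Genes of the lists are named where past 2-fold (at most 6 a list, by size) or, measured on all arrays, among the 2 lowest or highest mean changes, and the 5 nearest profiles are named; DKC1, SNORD25, SNORD26, SNORD31, SNORD75, SNORA26 and further markers were named after their values were seen. Members, lists and the rule for stray signal were chosen with earlier results of these data known. Start sequences and names came from RefSeq tables (GRCh38.p14). Alternatives were 2 quantile normalizations (1 after normexp with an offset of 50), median scaling, the authors' values, no filter on dim probes, the mean over probes, removal of stray areas, and limits of 1.5-fold and 3-fold. Genes as bright as the members were compared after seeing the data.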

Additional observations from a re-analysis of the deposited data

Results flagged for a closer look

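SNHG1, SNHG3 and SNHG7 had changes of opposite sign in the lines. The A549 change minus the HCT116 change was -0.76 for SNHG1, -0.82 for SNHG3 and 0.46 for SNHG7. The HCT116 values of SNHG3 and SNHG7, 0.05 and -0.05, were smaller than the median spot SD of 0.061, and that of SNHG1 was 0.11. These differences between the lines were not tested, since each line had 1 array per group.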

How the results depend on the processing

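SNHG5 in A549 was the only call at 2-fold in the 8 settings of values, ranging from -1.50 to -1.04; 5 genes passed a limit of 1.5-fold and 0 passed 3-fold. With quantile normalization, alone and after normexp, 3 genes passed 1.5-fold in A549 and 6 of 10 were lower, and 4 and 5 of 10 were lower in HCT116. The A549 median of the 10 genes was then -0.29 and -0.27, and it was -0.41 with the mean over probes; the HCT116 median was 0.014 and 0.0054 under those 2 normalizations. SNHG6 and SNHG8 turned sign in A549 under both (0.17 and 0.14, and 0.06 and 0.14), and GAS5 came to -0.21 and -0.20. Bright genes as a whole moved under them, from a median of -0.23 to 0.02 and 0.05 in A549; the cause of that shift was not tested. Members called for the line numbered 7 or 8 in every setting, and 0 were called for the transfection by limma. The limma fit already pairs the arrays by line; the labels carry no replicate numbers for a further block. The number of arrays limits the precision.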

Other observations

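The protein-coding genes nearest to each host, taken from RefSeq after the results were seen, gave further values in A549. RCC1, a nucleotide exchange factor whose gene overlaps SNHG3, had a change of -0.69 beside -0.76 for the host. SYNCRIP, an RNA-binding protein next to SNHG5, had -0.81 beside -1.35. ERVMER34-1 next to DANCR had -0.84 beside -0.90, ZBTB37 overlapping GAS5 had -0.53 beside -0.51, and SLC3A2, an amino acid transporter subunit next to SNHG1, had -0.45 beside -0.65. Values of unlike sign came from ZNFX1 (0.26) next to ZFAS1 (-0.66) and from TRNAU1AP (-0.36), which overlaps SNHG12 (0.23); DIPK1B, which overlaps SNHG7 (0.41), had 0.0019. PRSS12 next to SNHG8 and MCMDC2 at SNHG6 were not well above background on all arrays (3 and 1 of 4) and are given no change. In HCT116 the sign was that of the host for RCC1 (0.11 beside 0.05), ERVMER34-1 (-0.27 beside -0.25) and DIPK1B (-0.43 beside -0.05), and the other sign for ZBTB37 (0.52 beside -0.15), SYNCRIP (0.08 beside -0.14), SLC3A2 (-0.09 beside 0.11), TRNAU1AP (-0.05 beside 0.38) and ZNFX1 (0.13 beside -0.26). Between the NC1 arrays SLC3A2 was higher in A549 by 0.94, while SNHG1 was lower there by a difference of -1.80.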
